A study of Mus musculus with 28 samples.

Results

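Dlx1 to Dlx6 are the 6 mouse genes of the Dlx homeobox family, taken by name from the mm9 annotation, and they are 6 of its 22380 protein-coding genes. They lie as 3 pairs, and in each pair the genes point toward one another. Dlx1 (plus strand) and Dlx2 (minus strand) span chr2:71366170-71384811, Dlx3 (plus) and Dlx4 (minus) span chr11:94981403-95007577, and Dlx6 (plus) and Dlx5 (minus) span chr6:6813334-6832085. The outer ends of each span are therefore the transcription start sites (TSSs). The space between the genes measures 9.43 kb for Dlx1 and Dlx2, 15.2 kb for Dlx3 and Dlx4, and 9.24 kb for Dlx5 and Dlx6. A long noncoding RNA is annotated on the minus strand across the start of each plus-strand gene in 2 of the pairs, Dlx1as at chr2:71354511-71375948 and Dlx6os1 at chr6:6770189-6819533.

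The cells were mouse embryonic stem cells carrying floxed Brg1 alleles and Actin-CreER (Brg1f/f; Actin-CreER in the labels), differentiated as embryoid bodies and induced to mesoderm for 40 h, up to day 4. Brg1 is the ATPase of the BAF chromatin remodelling complex. From day 2 the cultures received 200 nM 4-hydroxytamoxifen (4-OHT) in tetrahydrofuran, which activates CreER and deletes Brg1, or tetrahydrofuran alone (control). The line is constitutively CreER-positive in both conditions, no CreER-negative culture given 4-OHT is among the samples, and the FLAG samples carry the same line name although the study describes them as Brg1-FLAG cells. Regions enriched over input were listed for each replicate separately: H3K27me3 in 3 control and 3 4-OHT replicates, Suz12 in 2 and 2, H3K27ac in 2 and 2, and FLAG in 3 replicates without deletion. The remaining 11 of the 28 samples were inputs.

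Dlx proteins are transcription factors related to Distal-less of the fly. Dlx1 and Dlx2 direct the formation of GABAergic neurons in the ventral forebrain, Dlx3 is needed in placenta, hair and tooth, Dlx5 and Dlx6 pattern the jaw and act in bone and limb, and Dlx4 is the least studied of the family. None of these tissues exists in early mesoderm, where such developmental genes are commonly held silent by Polycomb. Polycomb repressive complex 2, of which Suz12 is a core subunit, trimethylates lysine 27 of histone H3 (H3K27me3), whereas acetylation of the same residue (H3K27ac) marks active promoters and enhancers, so both marks cannot sit on 1 histone tail.

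In the day 4 cultures the start sites of all 6 Dlx genes lay in regions of H3K27me3 and Suz12, with no H3K27ac region listed there. The value used is covered length, the number of bases of a window that lie in listed regions, and the window is 5 kb on each side of the TSS (10001 bp) unless another is named. All 6 genes had H3K27me3 in 6 of 6 lists and Suz12 in 4 of 4 lists, and all 6 had 0 bp of H3K27ac in 4 of 4 lists. This combination was found at 877 of the 22380 genes (3.92%). Among the 1151 genes with H3K27me3 in every list and Suz12 in every list, 76.2% had no H3K27ac in any list, so the 6 Dlx genes matched the more common state of such genes. The lists hold positions only, without reads or scores, so depth is unknown, strength within a region cannot be seen, and a gene with 0 bp is one with no listed region.

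Dlx6 carried the longest H3K27me3 coverage of the family in all 6 lists and Dlx3 the shortest in all 6. In the control lists the means were 7743 ± 1447 bp for Dlx6 and 6959 ± 1902 bp for Dlx2 (SD, n = 3). Dlx5, Dlx1 and Dlx4 followed with 5366 ± 1612, 5153 ± 1790 and 4983 ± 1548 bp (SD, n = 3), and Dlx3 had 3133 ± 1182 bp (SD, n = 3). Only the step from Dlx4 to Dlx3 exceeded the SDs of both neighbours; the other steps were within the spread of replicates, although Dlx6 lay above Dlx2 and Dlx2 above Dlx5 in 6 of 6 lists. By mean control coverage Dlx6 ranked 127th, Dlx2 184th and Dlx3 691st of 22380 genes. Suz12 gave nearly the same order, with Dlx6 at 7588 ± 1149 bp, Dlx1 at 5470 ± 389 bp and Dlx2 at 5278 ± 513 bp (SD, n = 2). Dlx5 had 4678 ± 477 bp, Dlx4 3088 ± 301 bp and Dlx3 1912 ± 88.4 bp (SD, n = 2). For Suz12 the step from Dlx1 to Dlx2 was within the spread and every other step was larger than both SDs. Dlx6 was again the highest in 4 of 4 lists and Dlx3 the lowest in 4 of 4.

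The marks ran between Dlx1 and Dlx2 and between Dlx5 and Dlx6, whereas Dlx3 and Dlx4 were separate islands. With regions joined where 2 kb or less apart, Dlx3 and Dlx4 gave 2 domains in all 10 H3K27me3 and Suz12 lists. Dlx5 and Dlx6 gave 1 domain in every list but Suz12 in 4-OHT replicate 1, which had 2. Dlx1 and Dlx2 gave 1 domain in all 4 Suz12 lists and in 3 of the 6 H3K27me3 lists, and 2, 3 and 2 in control replicate 1 and 4-OHT replicates 1 and 3. Between Dlx1 and Dlx2, control H3K27me3 covered 54.0, 89.9 and 86.2% of the intergenic space in replicates 1, 2 and 3, and control Suz12 covered 92.3 and 92.6%. Between Dlx6 and Dlx5 control H3K27me3 covered 85.9, 91.1 and 88.9%, and Suz12 68.2 and 94.6%. The intergenic space of these 2 pairs, which is known to hold conserved forebrain and branchial arch enhancers, was thus mostly covered. Between Dlx3 and Dlx4 control H3K27me3 covered 0, 1.28 and 1.61% and Suz12 0% in both replicates. A stretch of 15250 bp from chr11:94985776-95001025, which starts inside Dlx3, was free of both marks in all 10 lists. The Dlx3 island started within 1.15 kb upstream of the Dlx3 TSS in the control lists, and the other island lay over Dlx4.

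**Figure D1:**
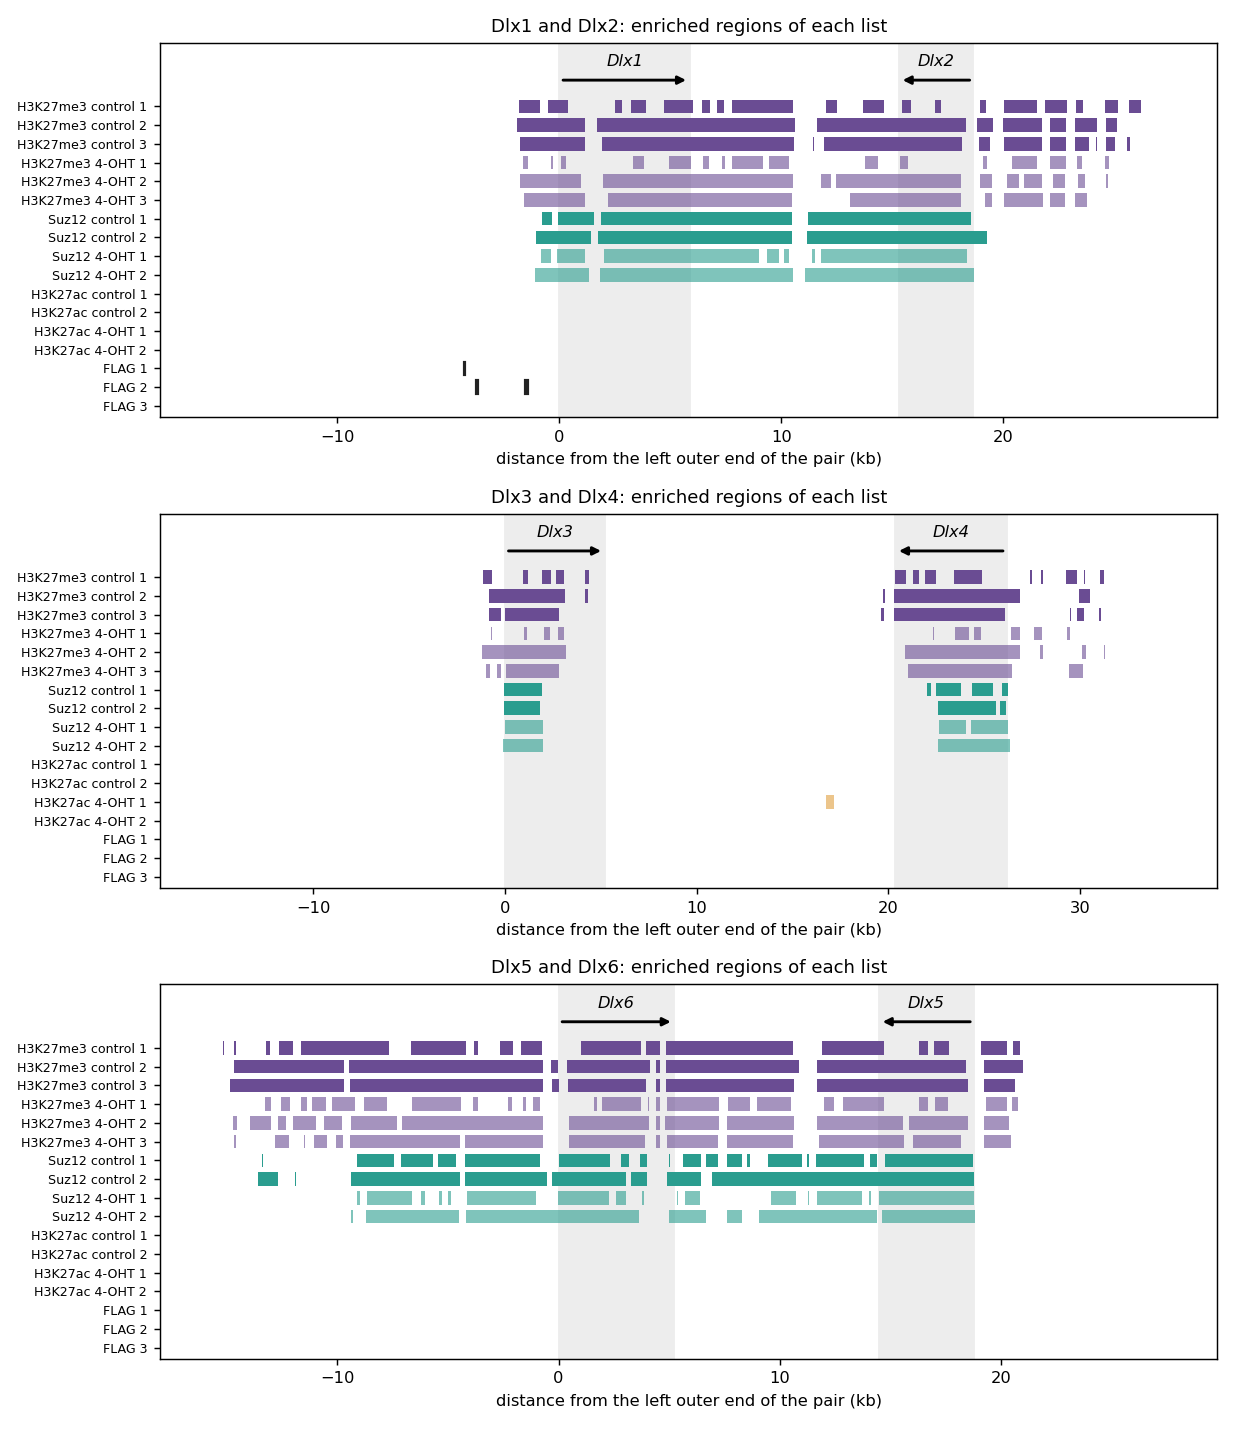
Enriched regions of every list over the 3 pairs, plotted by distance in kb from the left outer end of the pair; grey bands and arrows are the genes and their direction, each row is 1 list, and paler bars are 4-OHT lists. H3K27me3 and Suz12 run through the space between Dlx1 and Dlx2 and between Dlx6 and Dlx5. Both are absent from 15250 bp that start inside Dlx3 and end before Dlx4.

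The flanks of the pairs differed as well. Joined in the same way, the H3K27me3 domain over Dlx5 and Dlx6 reached 15.2, 14.7 and 14.8 kb beyond the Dlx6 TSS in control replicates 1, 2 and 3, and Suz12 reached 9.08 and 9.38 kb beyond it, both inside the annotated Dlx6os1. On the Dlx5 side H3K27me3 went 1.84 to 2.24 kb beyond the TSS. The Dlx1 and Dlx2 domain extended 1.77 to 1.89 kb upstream of Dlx1 and 6.49 to 7.54 kb upstream of Dlx2 in the control lists. The joined extent of the Dlx5 and Dlx6 domain was 36.0, 35.6 and 35.4 kb in the controls, against 28, 27 and 27.5 kb for Dlx1 and Dlx2. The value of 28 kb, from control replicate 1, runs across 2 domains.

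Most of the Suz12 near the start sites of Dlx1 to Dlx5 lay on the gene side of them. It reached 0.794 and 1.04 kb upstream of Dlx1 in the controls, and 0.639 kb upstream of Dlx2 in control replicate 2. Of the Suz12 bases listed within 5 kb of the TSS in control cells, 85.7% were downstream of the TSS at Dlx1, 93.9% at Dlx2, 98.6% at Dlx3, 98.8% at Dlx4 and 99.8% at Dlx5. Dlx6 was the exception with 45.4%, since its domain continued into Dlx6os1. The median share was 70.0% over 608 genes with Suz12 in at least 1 control list and a mean H3K27me3 coverage over the 6 lists at or above that of Dlx3 (genes with like coverage). H3K27me3 was spread more evenly, with 49.3% downstream at Dlx6, 51.8% at Dlx2, 67.0% at Dlx1, 71.0% at Dlx5, 79.2% at Dlx3 and 81.4% at Dlx4, against a median of 52.6% over 626 such genes. In the 100-bp bin from 100 to 200 bp downstream of the TSS all bases of the 6 genes were covered in both Suz12 control lists (100%), whereas 25% of bases were covered in the bin from 200 to 100 bp upstream. H3K27me3 was low there, with 33.0% of bases covered in the first 100 bp downstream in the controls.

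Short stretches without H3K27me3 lay at or beside the TSS of Dlx2, Dlx5 and Dlx6. At Dlx2 the 525 bp from chr2:71384476-71385000 (from -189 to 335 bp relative to the TSS) had no H3K27me3 in the 3 control and the 3 4-OHT lists, while Suz12 covered 250 and 525 of these bases in the controls. At Dlx5 the 600 bp from chr6:6831826-6832425 were free of H3K27me3 in all 6 lists, with 225 and 275 bp of control Suz12. At Dlx6 the stretch was 375 bp, from chr6:6813351-6813725, and control Suz12 covered 350 and 375 bp of it. Within 1 kb of the TSS these 3 genes had 75, 225 and 350 bp with Suz12 in all 4 lists and H3K27me3 in none. Dlx1, Dlx3 and Dlx4 had 0 such bases, as did most genes with like coverage, of which 89 of 626 (14.2%) had any.

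**Figure D2:**
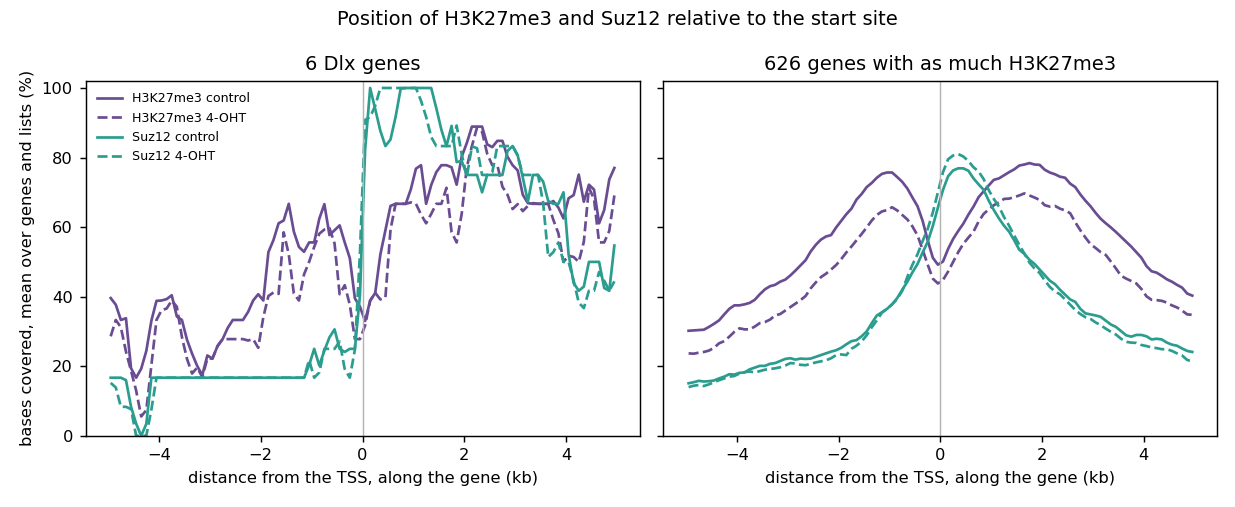
Share of bases covered (%) in 100-bp bins from 5 kb upstream to 5 kb downstream of the TSS, averaged over genes and lists, for the 6 Dlx genes (left) and 626 genes with a mean H3K27me3 coverage at or above that of the lowest Dlx gene (right); solid lines are control and dashed lines 4-OHT. In the control lists Suz12 at the Dlx genes is at 25% from 200 to 100 bp upstream and at 100% from 100 to 200 bp downstream, and H3K27me3 dips to 33.0% in the first 100 bp downstream.

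The bases under Suz12 were the CpG-rich part of each locus. Within each pair and 10 kb on either side, bases with Suz12 in both control lists held 3.89 CpG per 100 bp at Dlx1 and Dlx2, 5.83 at Dlx3 and Dlx4 and 3.01 at Dlx5 and Dlx6. Bases with H3K27me3 in control replicates 2 and 3 but no control Suz12 held 1.33, 1.83 and 1.09 per 100 bp in the same order. Bases with neither mark held 1.37, 1.46 and 1.38. The density of CpG under H3K27me3 alone was thus near that of the unmarked bases, whereas under Suz12 it was higher in all 3 pairs. Over the whole TSS window the ratio of observed to expected CpG was 0.412 (Dlx3) to 0.511 (Dlx2), against a median of 0.280 over all protein-coding genes and 0.428 over the 626 genes with like H3K27me3.

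CpG content right upstream of the TSS differed between the genes of each pair. The 250 bases before the TSS are shown for Dlx1 and Dlx2, which differ most, and for Dlx5, whose Suz12 stops at the TSS (mm9, strand of the gene, CG dinucleotides in capitals; the letters searched, CG, read the same on both strands).
Dlx1, chr2:71365920-71366169, plus strand: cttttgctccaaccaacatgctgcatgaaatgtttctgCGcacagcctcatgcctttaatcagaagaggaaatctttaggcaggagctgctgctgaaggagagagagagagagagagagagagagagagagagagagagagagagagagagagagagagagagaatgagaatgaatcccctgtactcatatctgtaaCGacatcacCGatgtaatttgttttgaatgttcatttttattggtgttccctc
Dlx2, chr2:71384812-71385061, minus strand: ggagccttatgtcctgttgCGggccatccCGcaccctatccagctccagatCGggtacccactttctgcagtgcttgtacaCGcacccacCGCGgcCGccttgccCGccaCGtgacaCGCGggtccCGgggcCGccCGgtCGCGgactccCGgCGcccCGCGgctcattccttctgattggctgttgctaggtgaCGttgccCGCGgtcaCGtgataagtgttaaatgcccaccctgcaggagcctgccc
Dlx5, chr6:6832086-6832335, minus strand: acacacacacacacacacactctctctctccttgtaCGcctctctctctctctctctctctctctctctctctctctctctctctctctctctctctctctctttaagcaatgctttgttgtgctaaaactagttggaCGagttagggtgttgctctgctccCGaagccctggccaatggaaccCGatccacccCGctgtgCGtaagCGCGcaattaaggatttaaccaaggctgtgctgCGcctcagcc
The Dlx2 sequence held 24 CG, a number reached by 13.5% of all promoters of this length, and the Dlx5 sequence held 9 (49.6% of promoters). The Dlx1 sequence held 3 (75.4%). Of the sequences not shown, that of Dlx3 held 11 CG, Dlx4 7 and Dlx6 3. Suz12 covered 44 and 250 of these bases at Dlx1 in control replicates 1 and 2, 0 and 250 at Dlx2, and 0 and 15 at Dlx5, so the listed Suz12 differed between replicates in these short windows. H3K27me3 covered all 250 bases at Dlx1 in the 3 controls, 0, 61 and 0 at Dlx2, and 0 in every list at Dlx5.

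The main comparison asked whether deletion of Brg1 changed the Polycomb domains. H3K27me3 coverage was lower after 4-OHT in every same-numbered pair of replicates at Dlx1, Dlx2, Dlx5 and Dlx6, and mixed in direction at Dlx3 and Dlx4. The same rule was met by 44.1% of the 4204 genes with any H3K27me3 and by 76.2% of the 626 genes with like coverage, so 4 of 6 Dlx genes lay between these shares. No Dlx gene was higher in every pair (0.809% of the 4204 genes). Comparing the conditions without pairing, 0 of 6 were lower in every 4-OHT list than in every control list (12.0% of all genes with H3K27me3 and 7.51% of those with like coverage) and 0 of 6 were higher (0.190%). Replicate 1 of both conditions listed many narrow regions and stood below replicates 2 and 3 of its condition at all 6 genes. With 3 replicates against 3 the exact two-sided permutation test cannot give a p below 0.1, and the sign-flip test over 3 pairs none below 0.25. Fewer cells with a mark and less of it per cell cannot be told apart in these bulk cultures.

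At Dlx1, a forebrain regulator, H3K27me3 covered 3095, 6345 and 6020 bp in control replicates 1, 2 and 3 and 1120, 5795 and 5520 bp in the same-numbered 4-OHT replicates. Each 4-OHT value was below its control, but the conditions overlapped since control replicate 1 was below 4-OHT replicates 2 and 3. The mean differed by -1008 bp (-19.6%; permutation p = 0.5, exact, two-sided, n = 3 and 3; sign-flip p = 0.25, exact). The difference was -63.8% in replicate 1 and -8.67 and -8.31% in replicates 2 and 3.

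At its partner Dlx2 the controls covered 4775, 8251 and 7851 bp and the 4-OHT replicates 3225, 7176 and 7651 bp. All 3 replicates were lower after 4-OHT, with differences of -32.5, -13.0 and -2.55%, the last being small. The mean difference was -941.7 bp (-13.5%; permutation p = 0.5, exact; sign-flip p = 0.25, exact).

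At Dlx6 the controls covered 6076, 8676 and 8476 bp and the 4-OHT replicates 3626, 8201 and 7776 bp. The mean difference was -1208 bp (-15.6%; permutation p = 0.5, exact; sign-flip p = 0.25, exact), again widest in replicate 1 (-40.3%, against -5.47 and -8.26%). Dlx5, with Dlx6 a patterning gene of the jaw, covered 3516, 6466 and 6116 bp in the controls and 3066, 5566 and 5291 bp after 4-OHT. It was the only member whose 3 same-numbered differences were alike, at -12.8, -13.9 and -13.5%. The Dlx5 mean differed by -725 bp (-13.5%; permutation p = 0.5, exact; sign-flip p = 0.25, exact).

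Dlx3 and Dlx4 did not have 1 direction. Dlx3 covered 1825, 4125 and 3450 bp in the controls and 950, 4375 and 3250 bp after 4-OHT, with replicate 2 higher and the others lower. Dlx4 covered 3277, 6299 and 5374 bp in the controls and 2150, 6049 and 6024 bp after 4-OHT, with replicate 3 higher. Their means differed by -8.78% and -4.86% (sign-flip p = 0.75 for each, exact), and without replicate 1 they differed by 0.66% and 3.43%. Over the gene bodies instead of the TSS windows, 5 of 6 genes were lower in every pair, all but Dlx3, against 40.5% of gene bodies with any H3K27me3. The share among gene bodies with like coverage was not computed, so the count cannot be read as particular to the Dlx genes.

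**Figure D3:**
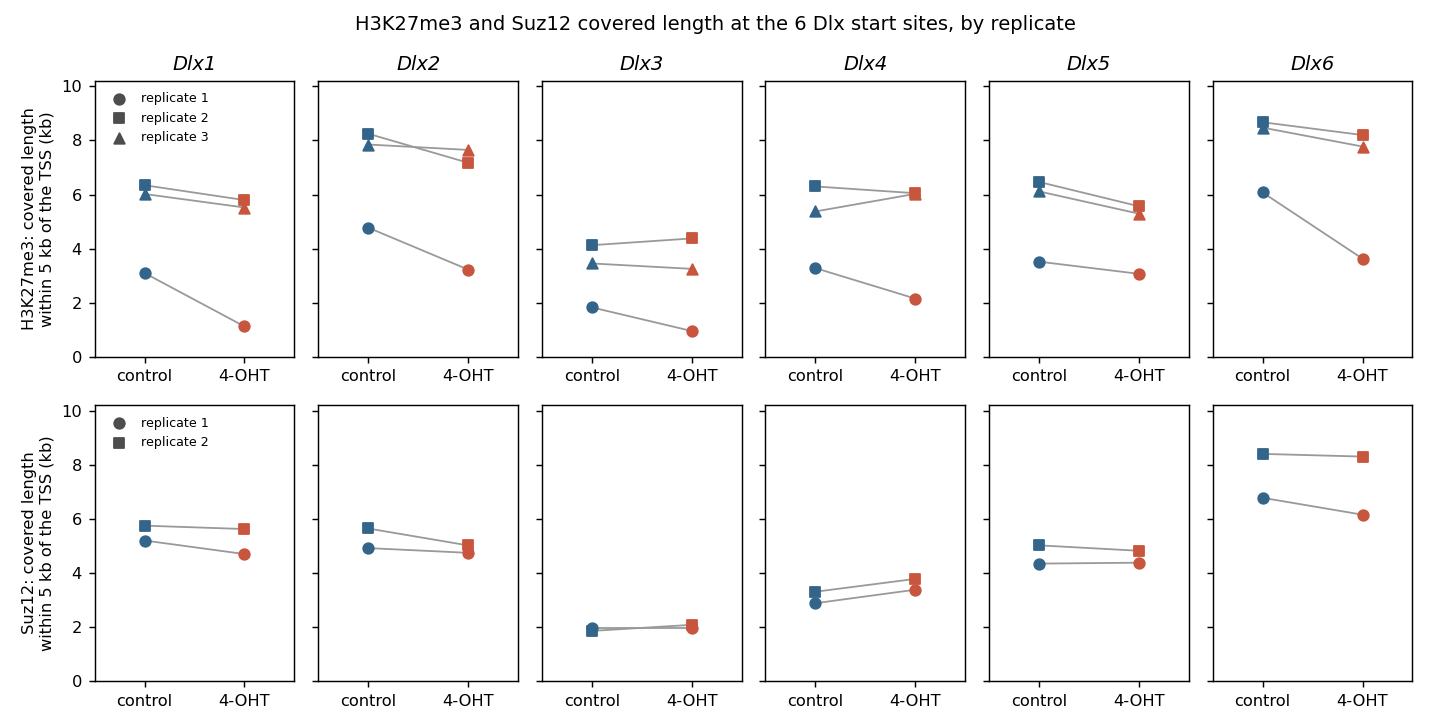
Covered length (kb) within 5 kb of each Dlx TSS for H3K27me3 (top, 3 replicates) and Suz12 (bottom, 2 replicates); each point is 1 list, blue for control and red for 4-OHT, and grey lines join same-numbered replicates. All 3 H3K27me3 lines slope down at Dlx1, Dlx2, Dlx5 and Dlx6, a direction that is the opposite for the means as a share of each list's total length, and replicate 1 lies lowest in each condition.

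Across whole pairs the same-numbered comparison went 1 way. Between the outer ends of Dlx1 and Dlx2 H3K27me3 covered 8281, 16806 and 16081 bp in the controls and 5325, 15631 and 14406 bp after 4-OHT, a difference of -14.1% in the mean. Over Dlx3 and Dlx4 it covered 4175, 9275 and 8775 bp in the controls and 2025, 8475 and 7952 bp after 4-OHT (-17.0%). Over Dlx5 and Dlx6 it covered 12975, 16675 and 16317 bp in the controls and 10325, 15725 and 14950 bp after 4-OHT (-10.8%). Each pair was lower in 3 of 3 same-numbered comparisons (sign-flip p = 0.25, the smallest possible, exact) and overlapped between conditions without pairing (permutation p = 0.5, exact). At TSS windows the same-numbered rule was met by 76.2% of the 626 genes with like coverage. No share was computed for spans as long as the pairs, so this cannot be read as particular to the Dlx pairs. The differences were -5.70 to -10.4% in replicates 2 and 3 and -20.4 to -51.5% in replicate 1.

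The direction of these differences depends on the scale, since the lists as a whole were shorter after 4-OHT. The total length of the H3K27me3 lists differed by -43.5, -18.3 and -24.0% in replicates 1, 2 and 3 after 4-OHT. The median change was -42.3% over the 4204 genes with any H3K27me3 and -14.1% over the 626 genes with like coverage, and -13.5% over the 6 Dlx genes (range -19.6 to -4.86%). As a share of each list's total length, H3K27me3 at the Dlx genes was instead higher after 4-OHT, by 3.84% at Dlx1, 18.1% at Dlx2, 18.9% at Dlx3, 27.9% at Dlx4, 21.3% at Dlx5 and 14.4% at Dlx6. This held in 3 of 3 same-numbered replicates at Dlx2, Dlx4, Dlx5 and Dlx6 and in 2 of 3 at Dlx1 and Dlx3. A higher share in every same-numbered replicate (4 of 6) was met by 14.6% of all genes with H3K27me3 and by 56.4% of those with like coverage. Without pairing 1 of 6, Dlx5, was higher on that scale, against 4.92% and 23.0%. On that scale the pairs were higher by 15.4% (Dlx1 and Dlx2), 8.93% (Dlx3 and Dlx4) and 25.6% (Dlx5 and Dlx6), and Dlx5 and the Dlx5 and Dlx6 span did not overlap between conditions (permutation p = 0.1, exact, the smallest possible for 3 against 3). Thus the Dlx domains were shorter in bases and took a larger part of a shorter list, and without read counts neither scale can be preferred from these data.

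**Figure D4:**
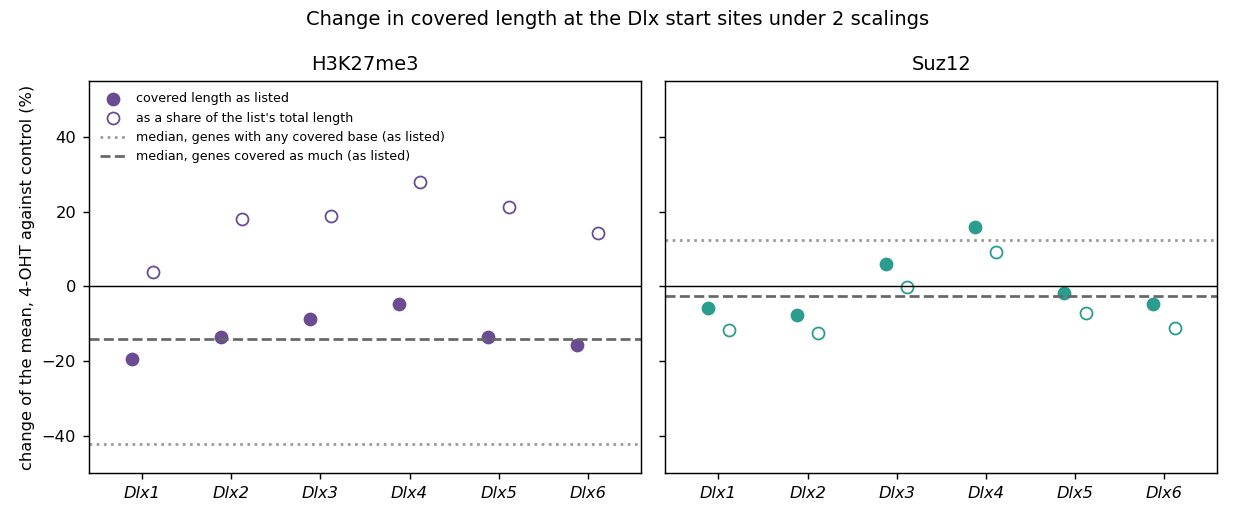
Change of the mean covered length at each Dlx TSS, 4-OHT against control (%), for H3K27me3 (left) and Suz12 (right); filled points use bases as listed, open points the share of the list's total length, and lines are medians over genes with any covered base (dotted) and over genes covered as much (dashed), both as listed. For H3K27me3 all filled points lie below 0 and all open points above it.

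The difference in length had different forms at the 3 pairs. In replicates 2 and 3 the joined extent over Dlx1 and Dlx2 was 27 and 27.5 kb in the controls. After 4-OHT it was 26.5 and 25.4 kb, the latter measured across 2 domains. Dlx3 and Dlx4 gave 2 domains in every list, so their distance from first start to last end includes unmarked space. That distance was 27.7 and 26.9 kb in the controls and 29.3 and 27.4 kb after 4-OHT. The bases covered in these domains were 10825 and 9400 bp in the controls and 10525 and 8650 bp after 4-OHT. Over Dlx5 and Dlx6 the outer limits were nearly the same, as the extent measured 35.6 and 35.4 kb in the controls and 35.0 and 35.1 kb after 4-OHT. Inside, the widest region touching that span was 6.72 and 6.83 kb in the controls and 3.88 kb in both 4-OHT replicates, and the joined domain held 8 regions in each of these controls and 14 and 15 after 4-OHT. Inside the pair, 2 stretches, between 7.27 and 7.59 kb and between 15.6 and 15.8 kb from the Dlx6 TSS, were covered in control replicates 2 and 3 and in 0 of 3 4-OHT lists. Control replicate 1 covered the first and not the last. In 4-OHT replicate 1 regions were still listed upstream of Dlx6, between -13233 and -858 bp from the TSS, but the next began at 1617 bp, a gap wider than the 2-kb joining distance. Bases in both control replicates 2 and 3 but in no 4-OHT list summed to 875 bp at Dlx1 and Dlx2, 675 bp at Dlx3 and Dlx4 and 1825 bp at Dlx5 and Dlx6. Bases in 4-OHT replicates 2 and 3 but in no control list summed to 0 at all 3 pairs.

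H3K27me3 bases that also carried Suz12 were more often still listed after 4-OHT. Within the pairs and 10 kb on either side, the share of control H3K27me3 bases found again in the same-numbered 4-OHT list was computed separately for bases with Suz12 in both controls and for the rest. At Dlx1 and Dlx2 it was 62.4, 94.8 and 90.4% with Suz12 and 48.9, 64.6 and 76.2% without in replicates 1, 2 and 3. At Dlx3 and Dlx4 it was 77.8, 100 and 99.4% with and 29.7, 82.0 and 74.8% without. At Dlx5 and Dlx6 it was 77.1, 96.2 and 95.0% with and 77.4, 80.1 and 85.6% without. Replicate 1 at Dlx5 and Dlx6 was the only case in which the share was not higher with Suz12. The 626 genes with like coverage were measured over their TSS windows, a smaller window than the pairs with flanks. They showed the same order, with 74.1, 96.2 and 94.0% with and 65.5, 80.3 and 77.1% without, so this is not a feature of the Dlx genes alone. Bases are not replicates and no test was made.

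Suz12 itself differed little between conditions within 5 kb of most Dlx start sites. Dlx4 was the only member whose 2 4-OHT lists were both above both controls (1 of 6), against 32.1% of the 2290 genes with any Suz12 and 9.91% of the 444 genes with like Suz12. None was lower in both (0 of 6, against 5.76 and 18.7%). At Dlx4 Suz12 covered 2875 and 3300 bp in the controls and 3375 and 3775 bp after 4-OHT, a difference of 15.8% (permutation p = 0.333, exact, two-sided, the smallest that 2 against 2 allows). At Dlx6 it covered 6776 and 8401 bp in the controls and 6150 and 8301 bp after 4-OHT. At Dlx1 it covered 5195 and 5745 bp in the controls and 4695 and 5620 bp after 4-OHT, again overlapping. Dlx2 had 4915 and 5640 bp against 4740 and 5015 bp, Dlx5 had 4341 and 5016 bp against 4375 and 4816 bp, and Dlx3 had 1975 and 1850 bp against 1975 and 2075 bp, with the controls first. For the 5 genes other than Dlx4 the difference of means was -7.58 to 5.88% and the conditions overlapped or met at 1 value. The median over the 6 genes was -3.28%, beside 12.4% over all genes with Suz12 and -2.67% over the genes with like Suz12.

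Over whole pairs Suz12 covered 17506 and 17642 bp of Dlx1 and Dlx2 in the controls and 15656 and 17642 bp after 4-OHT (-5.26% in the mean). Over Dlx5 and Dlx6 it covered 13350 and 17102 bp in the controls and 11117 and 15402 bp after 4-OHT. This was lower in both same-numbered comparisons but overlapping (-12.9% in the mean, permutation p = 0.667, exact). Over Dlx3 and Dlx4 it covered 4750 and 5123 bp in the controls and 5275 and 5575 bp after 4-OHT, so the conditions did not overlap (9.90% higher, permutation p = 0.333, exact). In the gene bodies Dlx3 and Dlx4 were both higher (2 of 6, background 30.7%) and Dlx1 was lower (1 of 6, background 5.48%). These backgrounds are gene bodies with any Suz12, and shares among those with like Suz12 were not computed. No share was computed for spans as long as the pairs. The total length of the Suz12 lists differed by -2.92 and 17.0% in replicates 1 and 2. As a share of that total, Suz12 at Dlx4 remained above the control mean (9.15%) but the conditions then overlapped, while Dlx1, Dlx2 and Dlx6 were lower in both 4-OHT lists, with differences of -11.6, -12.5 and -11.3%. On this scale the same was met by 13.3% of the 2290 genes with any Suz12 and by 39.9% of the 444 genes with like Suz12, beside 3 of 6 Dlx genes. Over pairs the share differed by -11% (Dlx1 and Dlx2), 3.85% (Dlx3 and Dlx4) and -18.9% (Dlx5 and Dlx6). Only over Dlx5 and Dlx6 did the conditions not overlap on this scale (permutation p = 0.333, exact, the smallest possible). In bases as listed, the pair in which H3K27me3 was shorter in all 3 same-numbered comparisons and Suz12 longer in both was Dlx3 and Dlx4.

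No H3K27ac appeared at the Dlx genes after Brg1 deletion. The only H3K27ac region within 20 kb of any pair was 375 bp long at chr11:94998176-94998550, between Dlx3 and Dlx4, and was listed in 4-OHT replicate 1 and in no other of the 4 lists. It lay in the stretch free of H3K27me3 and Suz12, 9.21 kb from the Dlx4 TSS on its downstream side. The flanking genes were in another state. Each of the 6 flanking genes, Metap1d and Gm1631 around Dlx1 and Dlx2, Itga3 and Tac4 around Dlx3 and Dlx4, and Shfm1 and Acn9 around Dlx5 and Dlx6, had H3K27ac in 4 of 4 lists and Suz12 in none. Itga3, an integrin subunit, was the only flanking gene with any H3K27me3, in 5 of 6 lists. The nearest of them, Metap1d, ends 2.92 kb from the Dlx1 TSS. At Tac4, a tachykinin gene, H3K27ac covered 2600 and 2918 bp in the controls and 1175 and 1125 bp after 4-OHT, which do not overlap (12.6% of the 12031 genes with H3K27ac were lower in this way and 39.8% higher).

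FLAG regions near the Dlx genes lay at Dlx1 only and did not overlap between replicates. Within 20 kb of the pairs there were 3, all upstream of Dlx1, 1 in replicate 1 and 2 in replicate 2. Replicate 3 listed 192 regions in all, against 8021 and 8257 in replicates 1 and 2. The region of replicate 1 was 25 bp long, at chr2:71361876-71361900, in an exon of Metap1d and an intron of Dlx1as. Those of replicate 2 lay at chr2:71362426-71362500, in introns of both genes, and at chr2:71364601-71364750, in an intron of Dlx1as and 1.5 kb from the Dlx1 TSS. The last is the only 1 inside the Polycomb domain. It was covered by H3K27me3 in all 6 lists and by Suz12 in none, and its 150 bases (mm9, plus strand) contain no CG.
FLAG replicate 2 region: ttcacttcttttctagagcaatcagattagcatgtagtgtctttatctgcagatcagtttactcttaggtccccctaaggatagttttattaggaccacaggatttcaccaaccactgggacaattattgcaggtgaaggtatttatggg
Coverage by FLAG at the Dlx1 TSS window was thus 25, 225 and 0 bp, and 0 bp in all 3 lists at the other 5 genes. Over all protein-coding genes, 9.60% had any FLAG in replicate 1, 8.37% in replicate 2 and 0.210% in replicate 3. Both replicates 1 and 2 had FLAG at 3.93% of genes, as at Dlx1. The share of regions that overlap between replicates over the whole lists was not computed.

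Among genes that act with Dlx factors, a list of 22 was examined, holding regulators upstream of Dlx genes, forebrain targets and jaw and bone partners; 21 were measured. H3K27me3 was present at 17 of them, of which 11 were lower after 4-OHT in every same-numbered pair, 0 higher and 6 neither (backgrounds as above, 44.1% and 0.809% of all genes with H3K27me3 and 76.2% lower of those with coverage like the Dlx genes), with a median change of -8.43%. The 6 include ties, as at Nkx2-1, where replicate 2 covered the whole 10001-bp window in both conditions. Without pairing 1 was lower (12.0% of all genes), Edn1, the endothelin that induces Dlx5 and Dlx6 in the jaw, with 1800, 1700 and 1625 bp in the controls and 1350, 1600 and 1600 bp after 4-OHT. Suz12 was present at 16, with 3 lower, 2 higher and 11 overlapping, and a median change of -1.92%. Lower values were met by 5.76% of all genes with Suz12 and by 18.7% of the 444 genes with Suz12 like the Dlx genes. Higher values were met by 32.1% and 9.91%. The lower genes were Sp8, a zinc finger factor of limb and forebrain (3725 and 5825 bp against 975 and 2850 bp), Barx1, a jaw and stomach homeobox gene (9784 and 9751 bp against 8576 and 9084 bp), and Nkx2-1, a ventral forebrain regulator (8706 and 8881 bp against 8056 and 8456 bp), with the controls first. The genes with more Suz12 were Gsc, an organizer homeobox gene (5650 and 4875 bp against 6550 and 7175 bp), and Edn1 (0 and 175 bp against 500 and 700 bp).

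H3K27ac was present at 8 of the 21, with 2 lower (12.6% of all genes with H3K27ac), 2 higher (39.8%) and 4 overlapping. It was lower at Gsc, from 3825 and 5375 bp in the controls to 2075 and 2450 bp after 4-OHT, and at Msx2, a homeobox gene of the limb and jaw, from 2100 and 2725 bp to 2075 bp in both. It was higher at Sp8, from 2275 and 1950 bp to 2700 and 3100 bp. In bases as listed, Gsc and Sp8 therefore differed between conditions in both Suz12 and H3K27ac, in opposite directions to one another. Their shares of each list's total length were not computed. The forebrain regulators Gsx1, Gsx2, Nkx2-1, Lhx6 and Lhx8 had 0 bp of H3K27ac in all 4 lists, as the Dlx genes had. In the same lists, 5 of 6 mesoderm markers had H3K27ac (summed length 19190 to 27264 bp in the controls and 13264 to 20089 bp after 4-OHT, with Kdr at 0), and so had 3 of 4 pluripotency markers (12444 to 13469 and 13846 to 14946 bp, with Esrrb at 0) and 2 of 4 endoderm markers (3358 to 5308 and 1658 to 3483 bp, with Sox17 and Foxa2 at 0). Of the neural markers 3 were measured, Pax6, Neurog1 and Neurog2, and all were at 0 in both conditions. The pluripotency lengths were higher after 4-OHT without overlap, and 39.8% of single genes with H3K27ac were higher in the same way. No share was computed for summed lengths, so this cannot be read as particular to pluripotency markers. The mesoderm and endoderm ranges overlapped. The part of these markers in the Dlx results was not tested.

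The genes with the most similar coverage over all 17 lists were found for each member. Likeness was the mean absolute difference in covered length at the TSS window. Tbx4, a hindlimb T-box gene, was nearest to Dlx1 (186 bp), and Shh, the hedgehog ligand, to Dlx2 (215 bp). Bmp6 was nearest to Dlx3 (168 bp) and Ebf1 to Dlx4 (214 bp). Lhx9 was nearest to Dlx5 (256 bp) and Pou3f3, a neural POU factor, to Dlx6 (214 bp). The next in order were 1600029O15Rik, Alx4, Hes2, Grid1, Pdx1 and En2 for Dlx1 to Dlx6, at 257, 229, 171, 224, 258 and 256 bp.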

How the data were processed

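Regions enriched over input were called by the authors in each replicate with a Poissonian model after alignment with Bowtie to mm9, per the labels and the study's methods. Per the file headers the p-value threshold was 1e-06 with a 2-fold ratio over input for FLAG and 1e-12 for the other marks. The deposited lists give chromosome, start and end in 25-bp steps and no score or count, so depth is unknown and the 11 inputs entered only through the calling. The 17 lists were intersected with GENCODE M1 protein-coding genes (mm9), and the bases covered within 5 kb of each TSS, over gene bodies and across each pair were summed with Python 3.11.15 and NumPy 2.4.6. A calculation on 1000 simulated windows recovered all 1000 covered lengths.

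Conditions were compared over replicates with the exact two-sided permutation test of the mean and, for H3K27me3, the exact sign-flip test over same-numbered replicates. Same-numbered H3K27me3 replicates were taken as pairs. Their deviations from the group means correlated at 0.908, 0.819 and 0.763 over 4204 TSS windows. Replicates 2 and 3 also correlated across numbers, at 0.583 (control 2 with 4-OHT 3) and 0.647 (control 3 with 4-OHT 2). The values thus set replicate 1 apart more clearly than they pair replicates 2 and 3 by number. The sign-flip (replicate block) values rest on this pairing and stand beside the results. Background shares apply the same call to every gene with any covered base and to genes with a mean at or above that of the lowest Dlx gene. Genes named are the 6 Dlx genes, their nearest protein-coding neighbours, the genes of the lists that differed between conditions and the 2 most alike per member; Tac4 and the Gsc and Sp8 contrast were picked out after their values were seen. The members and lists were chosen with earlier results of these data known. Alternatives were other windows, scaling, region width and joining, and leaving out replicates. Sequences were read from the mm9 genome (NCBIM37). Labels call the replicates biological, and 1 of 22 network genes and 1 of 4 neural markers were not analysed here. Some genes of the network list are counted but not reported here by name.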

Additional observations from a re-analysis of the deposited data

How the results depend on the processing

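Direction reversed in some alternatives for both H3K27me3 and Suz12. Of 107 H3K27me3 alternatives at the TSS windows 87 kept the direction and 20 reversed it, and of 45 over pairs 38 and 7. For Suz12 these were 64 and 14 of 78, and 27 and 3 of 30. As a share of the list's total length H3K27me3 differed by 3.84, 18.1, 18.9, 27.9, 21.3 and 14.4% at Dlx1 to Dlx6 and by 15.4, 8.93 and 25.6% over the 3 pairs, and Suz12 at Dlx3 by -0.251%; then 1 gene was higher in H3K27me3, 3 lower and 0 higher in Suz12. At equal total length H3K27me3 reversed to 46.1% (Dlx1), 9.15% (Dlx4), 11.6% (Dlx6) and 40.9% (Dlx3 and Dlx4), kept its direction at -3.76% (Dlx2), -22.6% (Dlx5), -2.97% (Dlx1 and Dlx2) and -11.3% (Dlx5 and Dlx6) and gave no value at Dlx3, and Suz12 by 0.0554% (Dlx6). The other reversals were as follows. In a 2.5-kb window the values were 12.1% for H3K27me3 at Dlx4 and, for Suz12, 1.51% at Dlx5 and 1.15% at Dlx6. With regions joined within 1 kb Suz12 differed by 0.633% (Dlx1), -4.53% (Dlx4), 5.26% (Dlx5) and -3.05% (Dlx3 and Dlx4), with 1 gene lower. In gene bodies Suz12 at Dlx5 differed by 1.56%, with 1 gene lower and 2 higher, and with regions of at least 500 bp by 0.376%. The H3K27ac region added 187.5 bp to Dlx4 in a 10-kb window and 0 bp to its pair with regions of at least 500 bp. The causes were not tested.

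Leaving out replicates, H3K27me3 ranged from -35.6 to 9.78% (Dlx1), -25.3 to 6.53% (Dlx2), -33.0 to 21.7% (Dlx3), -18.8 to 21.1% (Dlx4), -26.2 to 1.16% (Dlx5) and -26.4 to 3.18% (Dlx6), and over pairs from -28.3 to 9.44%, -32.7 to 10.9% and -17.5 to 0.099%; 0 to 4 genes were lower, 4 without control replicate 1 or without replicate 1 of both conditions. Suz12 ranged from -14.2 to 2.74%, -13.5 to -0.763%, 2.53 to 9.46%, 8.33 to 24.3%, -8.38 to 5.86% and -19.0 to 9.39% at Dlx1 to Dlx6 and from -10.9 to 0.387%, 5.89 to 14.2% and -27.0 to 1.16% over pairs, with 0 to 4 genes lower and 1 to 2 higher. H3K27ac over Dlx3 and Dlx4 ranged from 0 to 375 bp, at 0 without 4-OHT replicate 1.

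With the replicate block 4 genes were lower in H3K27me3, with mean differences within pairs of -26.9, -16.0, -15.9, -8.75, -13.4 and -18% at Dlx1 to Dlx6 and -17.7, -23.2 and -11.5% over the pairs. For Suz12 and H3K27ac, where 2 pairs share only a number (correlations 0.505 and 0.440), the block gave 3 genes lower in Suz12, with -5.90, -7.32, 6.08, 15.9, -1.60 and -5.21%, and -5.28, 9.94 and -13.3% over pairs. No setting brought a p under 0.1 for H3K27me3, the smallest possible with 3 against 3, and depth could not be examined.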
